A study of Platichthys stellatus with 16 samples.

Results

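The sex difference in the brain of the starry flounder (Platichthys stellatus) was set against the sex difference in its gonad, gene by gene. The comparison is the interaction of sex and tissue: female minus male in brain, minus female minus male in gonad. It used 8 of the 16 libraries analysed, 2 each of female brain, male brain, female gonad and male gonad, and all 16270 assembled genes in the deposited table. The table lists sequences put together from the reads themselves, called features here, and 11450 of them (70.4%) carry a gene name taken from similarity to known proteins. The fish were 3 years old, the labels name no treatment, and the other 8 libraries came from liver and muscle of both sexes. The labels do not say which fish a library came from, so p-values below measure only the spread between these libraries, which may be technical. The sequencing protocol describes RNA-seq of 24 libraries, and those outside the 16 were not analysed here.

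Flatfish, like many bony fish, often grow at different rates in the 2 sexes. The ovary stores RNA, ribosomes and yolk for the embryo, whereas the testis turns over dividing and meiotic germ cells and builds sperm tails. The brain carries the hormone signals that govern both organs, and in fish its radial glia make oestrogen from androgen.

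The 8 libraries held between 8077974 and 12972574 listed fragments, and these were 58.1% to 80.5% of the fragments the values imply for a library. This listed share was 74.1% and 72.1% in female brain, 58.1% and 58.2% in male brain, and 78.0% to 80.5% in gonads. Libraries of a group resembled each other, with Spearman correlations across features of 0.96 in female brain, 0.93 in male brain, 0.96 in female gonad and 0.91 in male gonad. Female and male brain correlated at 0.61 to 0.71. That was no higher than male brain with male gonad, at 0.65 to 0.72, or female with male gonad, at 0.62 to 0.71. The female brain libraries stood apart in their makeup. Features encoded in mitochondrial DNA took 24.8% and 19.2% of their listed fragments, against 2.44% and 2.42% in male brain, 0.18% and 1.53% in female gonad, and 0.749% and 0.497% in male gonad. Cytosolic ribosomal proteins took 8.31% and 6.3% in female brain, 2.07% and 3.21% in male brain, and 3.01% to 5.26% in gonads. Among markers of tissue, myelin basic protein (MBP) was abundant in all 4 brain libraries and below 8 FPKM in all gonads. The other oligodendrocyte markers matched did not follow it. CNP had 34.6 to 48.7 FPKM in brains and 53.2 to 91.1 in gonads, and Mag was highest in male gonad 2 (42.9). Of the testis and sperm markers matched, odf3 had 53 and 51.4 FPKM in female gonad and 47.9 and 50.3 in male gonad. ODF2 had 28.8 and 36 against 52.7 and 62.3. No oocyte marker of 12 and no pituitary marker of 11 was matched in the table. Only features with signal in all 16 libraries are listed, so genes confined to 1 organ are missing from it. Female liver 1 correlated at 0.77 and 0.75 with the female brain libraries, close to its 0.81 with female liver 2. These differences of makeup run with sex in the brain, and their part in the results below was not tested.

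A feature was called when edgeR's quasi-likelihood test gave a Benjamini-Hochberg adjusted p below 0.05 over all 16270 features. Log2 differences are female minus male and carry their standard error (SE). In brain 6471 features were called (39.8%), of which 3475 (21.4%) were higher in females and 2996 (18.4%) higher in males. In gonad 7661 were called (47.1%), 3795 (23.3%) higher in females and 3866 (23.8%) higher in males. The sex difference itself differed between the tissues for 4798 features (29.5%). Of these, 2645 (16.3%) had a more female-high difference in brain and 2153 (13.2%) a more female-high difference in gonad. The FPKM ranges of the sexes did not overlap for 76.0% of all features in brain and 77.8% in gonad, against 45.6% in liver and 49.6% in muscle. In bulk samples such as these, fewer cells of a type and less RNA per cell cannot be told apart.

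Of all features, 3103 (19.1%) were called in both tissues, and most of these kept their direction. The sign was the same for 2448 (15.0%), with 1180 female-high in both (7.25%) and 1268 male-high in both (7.79%). It was opposite for 655 (4.03%), with 427 female-high in brain and male-high in gonad (2.62%) and 228 the other way round (1.4%). The interaction was called for all 427 and all 228 of the opposite features, for 89 of the 1180 and for 104 of the 1268. For opposite signs the 2 differences add up in the interaction, so those calls largely follow from the way the classes were picked. A same-sign feature without an interaction call is not shown to differ equally in both tissues. The sign agreed for 78.9% of features called in both tissues, 61.9% of all features and 54.2% of those called in neither. Across all 16270 features the log2 differences of brain and gonad had a Spearman correlation of 0.29. The brain and gonad differences share no library. All features are read from the same libraries, however, so the points share depth and are not independent. A further 3368 features (20.7%) were called in brain alone and 4558 (28.0%) in gonad alone, and the interaction was called for 1359 (8.35%) and 2393 (14.7%) of these. Scaling changed how the calls fell between the sexes. In place of TMM, libraries were also scaled by their recovered fragment totals. The median of all features then moved from 0.12 to -0.46 in brain and from -0.02 to -0.72 in gonad. The share of brain calls above 0 then went from 53.7% to 28.5% and that of gonad calls from 49.5% to 24.9%, and the classes became 309 female-high in both, 2196 male-high in both, 377 and 158. Single libraries also weighed on these counts and, in brain, on their balance between the sexes. Without female brain 1, 1774 features were called in brain, and without male brain 2, 2346. Features of the same sign then numbered 766 and 1009, and those of opposite sign 157 and 193.

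**Figure D1:**
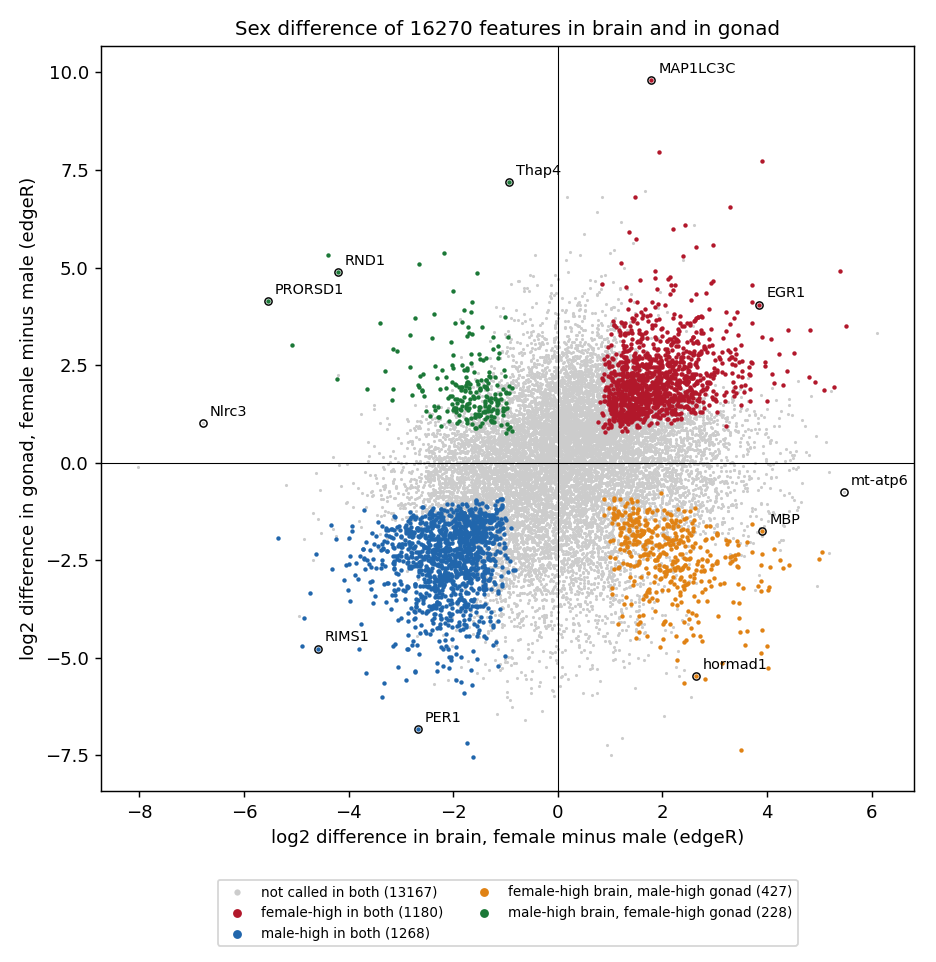
Log2 difference female minus male in brain (x axis) against the same difference in gonad (y axis) for 16270 features, estimated by edgeR. Coloured points passed the test in both tissues, red (1180) and blue (1268) with the same sign, orange (427) and green (228) with opposite signs, and circled points are named in the text.

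Named genes higher in females in both tissues were led by EGR1, an immediate early transcription factor that neurons and ovarian follicle cells switch on after stimulation. EGR1 stood at 182 and 126 FPKM in female brain, 25 and 12.2 in male brain, 68.8 and 84.3 in female gonad, and 6.38 and 10.4 in male gonad (FPKM is the authors' fragment level, scaled by feature length and by library total). All female libraries lay above all male libraries of the same tissue. The naming rule required such separation in both tissues of every gene it picked for a sign class, so it is no result. The log2 difference was 3.85 ± 0.51 in brain (adjusted p = 0.002) and 4.05 ± 0.52 in gonad (9.7e-05), and the interaction was -0.20 ± 0.65 (0.84). Cdca7, a DNA-binding protein of dividing cells with a part in DNA methylation, had 10.4 and 8.21 FPKM in female brain, 1.81 and 2.57 in male brain, 196 and 173 in female gonad, and 27 and 18.1 in male gonad. Both brain groups lay below both gonad groups. Its log2 difference was 2.73 ± 0.55 in brain (0.0051) and 3.77 ± 0.56 in gonad (0.00022).

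BOLA1, a mitochondrial protein involved in iron-sulphur cluster handling, had 58.6 and 30.3 FPKM in female brain, 10.9 and 8.41 in male brain, 79.1 and 82.5 in female gonad, and 14.8 and 7.35 in male gonad. Its log2 difference was 2.92 ± 0.61 in brain and 3.42 ± 0.61 in gonad. The brain call of BOLA1 (adjusted p = 0.0054) ended without male brain 2 (0.052). The remaining genes of this class that the naming rule picked were pithd1 (2.89 ± 0.44 in brain, 2.99 ± 0.44 in gonad), the RNA-binding protein gene rbm48 (2.88 ± 0.47 and 3.18 ± 0.47) and Abcf3 (2.81 ± 0.49 and 2.93 ± 0.49), a member of the ATP-binding cassette family. None of the interactions of these 6 female-high genes was called.

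Named genes higher in males in both tissues were led by RIMS1, a scaffold of the presynaptic release site. RIMS1 had 1.56 and 1.47 FPKM in female brain, 42.2 and 28.7 in male brain, 0.33 and 0.42 in female gonad, and 11.8 and 17.5 in male gonad. Female gonad was the lowest group, on 7 and 9 fragments and near the lowest value listed in the table (0.31 FPKM). The log2 difference was -4.59 ± 0.63 in brain (0.002) and -4.76 ± 0.67 in gonad (0.00017), with an interaction of 0.17 ± 0.75 (0.88). MROH1, a protein of HEAT repeats, had 1.75 and 2.49 FPKM in female brain, 40.9 and 32.5 in male brain, 2.55 and 1.81 in female gonad, and 36.7 and 87.7 in male gonad. It was also male-high in liver and muscle, whose libraries shared the fit, by -3.42 in liver (0.0053) and -3.99 in muscle (0.0032), beside -3.77 ± 0.49 in brain and -4.13 ± 0.49 in gonad.

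Cds1, which makes the CDP-diacylglycerol from which phosphatidylinositol is built, had 0.67 and 2.04 FPKM in female brain, 38 and 23.2 in male brain, 1.1 and 0.63 in female gonad, and 12.7 and 20.2 in male gonad. Pip5k1a, the kinase that makes phosphatidylinositol 4,5-bisphosphate, had 2.05 and 1.68 FPKM in female brain, 13.8 and 29.7 in male brain, 0.45 and 0.42 in female gonad, and 23.3 and 26.9 in male gonad. In both genes every male library exceeded every female library of its tissue, as the naming rule required. The log2 differences of Cds1 were -3.98 ± 0.64 in brain (0.0028) and -3.55 ± 0.64 in gonad (0.00075). Those of Pip5k1a were -3.32 ± 0.56 (0.0033) and -5.64 ± 0.7 (8.1e-05), and its interaction of 2.33 ± 0.92 missed the threshold (0.072). Pip5k1a rested on 1 fragment in each female gonad library and 6 or 7 in each female brain library. ARFGEF3 and Adam11, a membrane protein of neurons, were lower in females by -3.5 ± 0.58 and -4.02 ± 0.83 in brain and by -3.41 ± 0.59 and -3.26 ± 0.75 in gonad. All 6 male-high genes kept both calls when each of the 8 libraries was left out in turn.

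Genes that were female-high in brain and male-high in gonad included a meiotic gene. hormad1 encodes a HORMA-domain protein of the unsynapsed chromosome axis in meiosis. It had 14.2 and 14 FPKM in female brain, 3.94 and 2.84 in male brain, 1.96 and 5.31 in female gonad, and 158 and 174 in male gonad. Male gonad was far above every other group, and female brain lay above both male brain and female gonad. The log2 difference was 2.64 ± 0.46 in brain (0.0035) and -5.47 ± 0.52 in gonad (2e-05), and the interaction was 8.11 ± 0.69 (0.00011). PEBP1, an inhibitor of Raf kinase signalling, had 179 and 131 FPKM in female brain, 40.6 and 35.4 in male brain, 2.33 and 9.02 in female gonad, and 250 and 127 in male gonad. Female brain and male gonad were the high groups, with differences of 2.71 ± 0.64 (0.008) and -4.45 ± 0.7 (0.00033) and an interaction of 7.16 ± 0.95 (0.00051).

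ZBTB17, a zinc-finger partner of Myc, had 24.5 and 64 FPKM in female brain, 2.36 and 7.37 in male brain, 0.38 and 2.13 in female gonad, and 34.9 and 25 in male gonad. The log2 difference was 3.46 ± 0.74 in brain (0.0059) and -3.97 ± 0.77 in gonad (0.0012). hes4-a, a repressor of the Notch pathway's Hes family, had 9.94 and 31.1 FPKM in female brain, 1.21 and 6.46 in male brain, 0.82 and 1.69 in female gonad, and 19.3 and 7.06 in male gonad. Its differences were 2.93 ± 0.79 (0.013) and -2.72 ± 0.81 (0.014). aad-a, an aspartyl dipeptidase, and the nucleotide receptor P2ry4 followed with 2.74 ± 0.57 and 2.85 ± 0.69 in brain and -2.77 ± 0.58 and -2.5 ± 0.69 in gonad. Calls of 3 of these genes depended on single libraries. The brain call of PEBP1 ended without female brain 1 (0.055), male brain 1 (0.051) or male brain 2 (0.069). That of P2ry4 ended without the same libraries (0.058, 0.068 and 0.059), and its gonad call without female gonad 1 (0.065) or male gonad 1 (0.062). hes4-a lost its brain call without female brain 2 (0.092) or male brain 1 (0.1), and its gonad call without female gonad 1 (0.1) or male gonad 1 (0.11). The interaction of all 6 genes was called without each of the 8 libraries.

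Genes that were male-high in brain and female-high in gonad held a pair of Rnd proteins, atypical small GTPases that loosen the actin cytoskeleton. RND1 had 0.99 and 7.12 FPKM in female brain, 97.4 and 52.3 in male brain, 271 and 154 in female gonad, and 11 and 3.86 in male gonad. RND3 had 1.04 and 3.59 FPKM in female brain, 30.1 and 12.3 in male brain, 114 and 55.1 in female gonad, and 5.53 and 2.47 in male gonad. The order of the 4 groups was the same for both genes, with female gonad highest and female brain lowest. The differences of RND1 were -4.21 ± 0.8 in brain (0.0041) and 4.89 ± 0.83 in gonad (0.0005), with an interaction of -9.1 ± 1.15 (0.00045). Those of RND3 were -2.65 ± 0.73 (0.014) and 5.08 ± 0.79 (0.0003), and its brain call ended without female brain 1 (0.11) or male brain 1 (0.073).

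ETV5 encodes an ETS transcription factor that responds to FGF signalling. It had 3.52 and 4.22 FPKM in female brain, 126 and 51.4 in male brain, 22.3 and 21.3 in female gonad, and 7.09 and 5.25 in male gonad. Male brain exceeded the other groups, and female gonad exceeded male gonad. Its differences were -5.09 ± 0.82 in brain (0.0028) and 3.02 ± 0.74 in gonad (0.0048), and the gonad call was absent in limma on log2(FPKM + 1) (0.097). AKAP1, which anchors protein kinase A at mitochondria, had 0.55 and 0.62 FPKM in female brain, 8.77 and 11.4 in male brain, 85.5 and 50 in female gonad, and 9.21 and 10.5 in male gonad. Male levels were about the same in the 2 organs, and the female libraries lay below them in brain and above them in gonad. The differences were -3.41 ± 0.6 (0.0036) and 3.58 ± 0.58 (0.00036), with an interaction of -6.99 ± 0.83 (0.00043). PRKCD, a protein kinase C of the delta type, and LONRF3, a RING-finger protein, differed by -3.08 ± 0.61 and -3.15 ± 0.62 in brain and by 2.86 ± 0.6 and 2.92 ± 0.62 in gonad.

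All 24 class genes that the rule named kept both calls with RLE size factors, with scaling by recovered totals and with DESeq2, and 23 kept them in limma on log2(FPKM + 1). Some of the widest interactions rested on 1 library. PRORSD1 had 152 and 143 FPKM in female gonad and 18.8 and 9.97 in male gonad. In male brain it had 2.66 and 1080 FPKM, so the sexes overlapped there. Its interaction of -9.68 ± 2.17 (0.0059) became -1.75 without male brain 2, where the call ended. The gonad call of PRORSD1 ended without each of the gonad libraries in turn, and its brain call without either female brain library. ARHGEF25, a guanine nucleotide exchange factor, had 7.4 and 291 FPKM in male gonad, and its interaction of 7.21 ± 1.77 (0.0093) ended without male gonad 2 (0.053) or female gonad 1 (0.054). Its gonad call was lost without 5 libraries (0.057 to 0.64) and its brain call without 2 (0.1 and 0.14). Thap4 was high in female gonad, at 6240 and 4790 FPKM in female gonad against 42.2 and 74.3 in male gonad, 22.8 and 34.3 in female brain and 114 and 74.7 in male brain. Its interaction of -8.12 ± 0.55 (1.5e-05) was called without each library, but its brain difference of -0.94 ± 0.36 (0.049) was lost without any brain library (0.052 to 0.22).

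**Figure D2:**
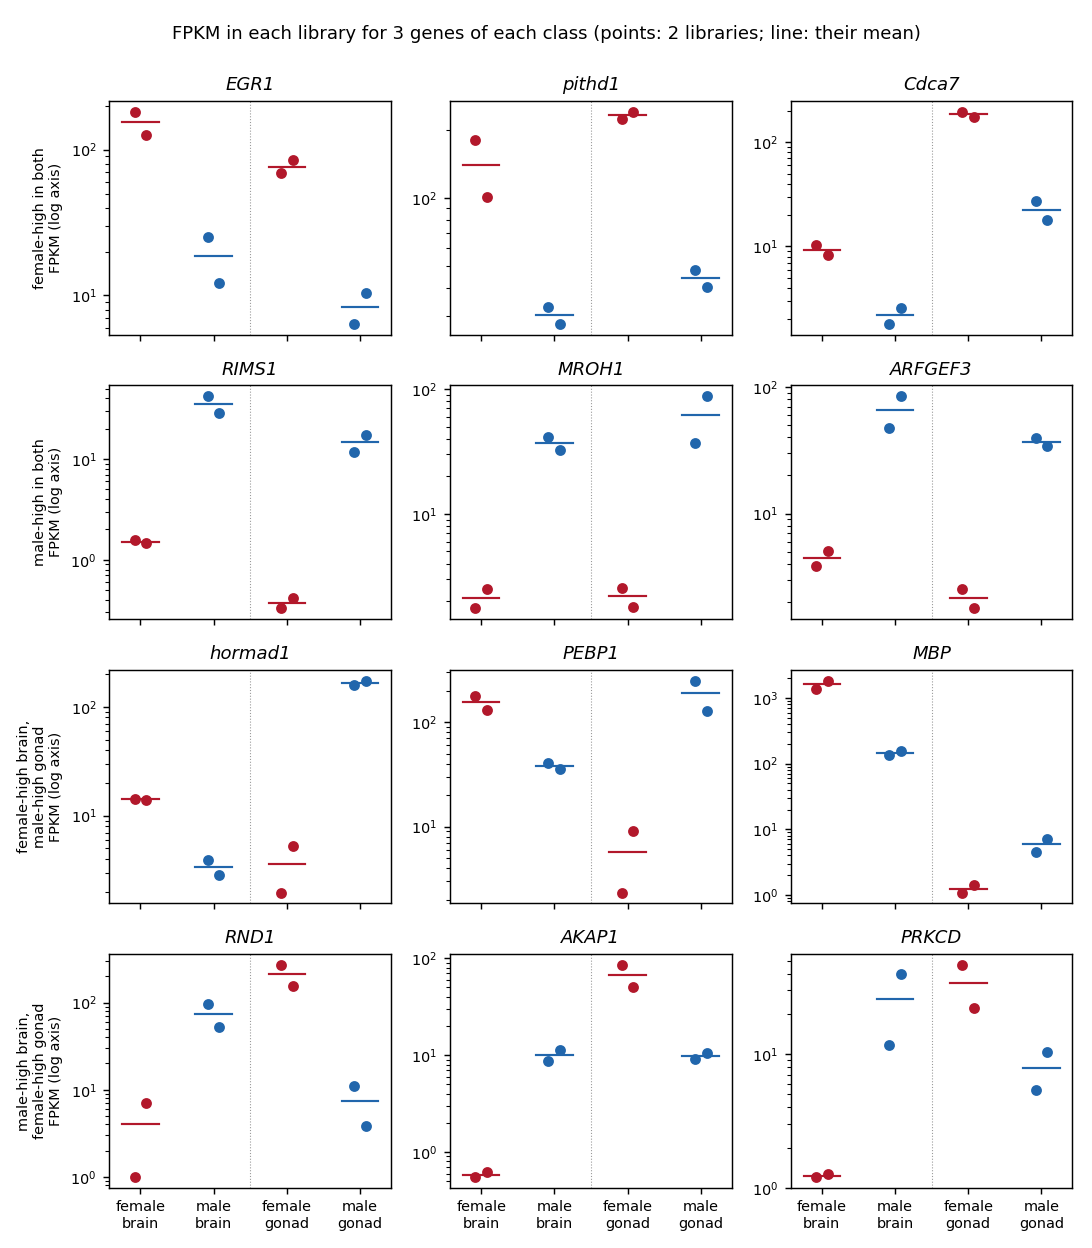
FPKM on log axes of 12 genes, 3 of each sign class, in the 8 libraries of female (red) and male (blue) brain and gonad, with each point a library and each line the mean of 2. EGR1 (182 and 126 against 25 and 12.2 FPKM in brain) and RIMS1 show the same order of sexes in both organs, whereas hormad1 and RND1 show the opposite order.

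The 4 classes also differed in length, naming and tissue. Length and naming did not enter the calls, whereas the tissue comparison and fragment counts below come from the same 8 libraries as the calls. Median assembled length was 1580 bases for female-high in both, 2320 for male-high in both, 1510 for female-high in brain with male-high in gonad and 1970 for the reverse class, against 1980 for all features. Gene names were attached to 54.2%, 84.4%, 40.3% and 89.0% of the classes in that order, against 70.4% of all. Averaged over the sexes, 498 of the 1180 female-high features were higher in gonad and 145 higher in brain, whereas 632 of the 1268 male-high features were higher in brain and 51 in gonad. Of the 427 female-high in brain and male-high in gonad, 306 were higher in brain and 16 in gonad, and of the 228 in the reverse class 21 and 140. Over all features these calls numbered 4367 and 4277. Members are not all separate genes: 182 of the 1268 male-high features share an assembled cluster with another member, against 33, 18 and 7 in the other classes. Fewer than 10 fragments in at least 1 of the 8 libraries were found for 34, 261, 108 and 12 features of the classes. Over all 16270 features the number was 1837.

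Feature length went with the sex difference in brain and not in gonad. From the shortest to the longest eighth of the features, the median log2 difference in brain was 0.87, 0.52, 0.23, 0.15, 0.13, 0.03, 0.01 and -0.18. In gonad the medians ran from -0.3 in the shortest eighth to 0.15 in the sixth and -0.17 in the longest. The shortest eighth (201 to 759 bases, 2040 features) had a median interaction of 1.11, and the longest (4290 to 18296 bases, 2033 features) one of -0.10. Across all features the Spearman correlation with length was -0.20 for the brain difference and 0.02 for the gonad difference. Cytosolic ribosomal proteins and features of mitochondrial DNA are among the shortest listed, with median lengths of 759 and 562 bases.

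The sex difference of the same features was also read in liver and muscle, whose contrasts did not define the classes although their libraries shared the scaling and the dispersion of the fit. In liver, 453 of all features were called (2.78%), 237 female-high (1.46%) and 216 male-high (1.33%). Of the 1180 features female-high in brain and gonad, 76 were female-high in liver and 0 male-high. Of the 1268 male-high ones, 0 were female-high and 76 male-high. For the counts of 0, unadjusted p below 0.05 held for 9 and 9 features and DESeq2 called 6 and 2. The class that was female-high in brain and male-high in gonad had 21 female-high and 1 male-high liver calls, and the reverse class had 0 and 4, the sign of the brain in nearly all. Unadjusted p below 0.05 held for 2 female-high features of that last class, and DESeq2 called 1. The log2 difference in liver was above 0 for 91.2%, 8.44%, 85.0% and 24.6% of the classes, against 51.1% of all features. The size of these liver differences depended on female liver 1, the library that resembled female brain. Without it the class medians went from 0.86, -0.83, 0.90 and -0.37 to 0.38, -0.48, 0.30 and -0.13. The liver difference was then above 0 for 76.7%, 17.7%, 65.3% and 41.7% of the classes, against 48.1% of all features. Without female liver 2 the class medians were 1.21, -1.39, 1.33 and -0.74. In muscle, 481 features were called (2.96%), 196 female-high (1.2%) and 285 male-high (1.75%), and the classes had 15 female-high and 17 male-high, 13 and 10, 10 and 2, and 2 and 9. Across features the brain difference had a Spearman correlation of 0.66 with the liver difference, 0.31 without female liver 1, and 0.12 with the muscle difference.

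**Figure D3:**
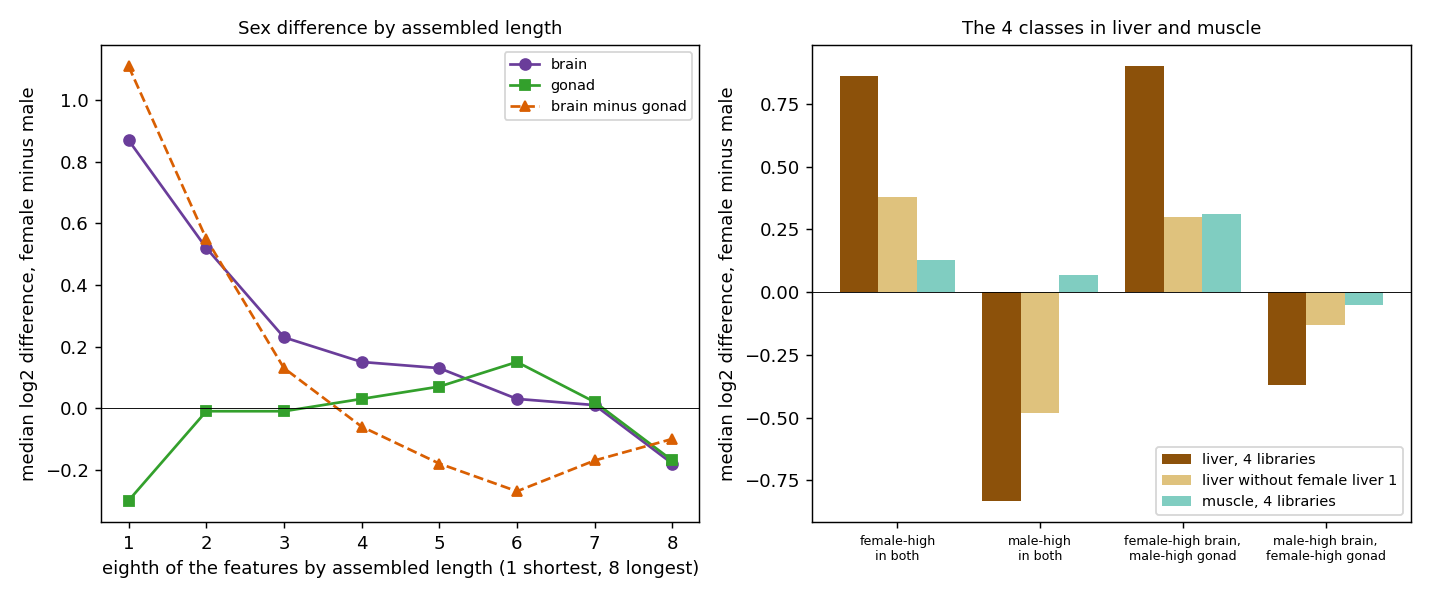
Left, median log2 difference female minus male in brain, in gonad and for brain minus gonad over eighths of the 16270 features by assembled length. Right, bars from 0 give the median log2 difference of the 4 sign classes in liver, in liver without female liver 1, and in muscle, and the liver median goes from 0.86 to 0.38 for features female-high in both and from -0.83 to -0.48 for those male-high in both.

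Features called in brain alone were led by mitochondrial and ribosomal genes in females. mt-atp6, the mitochondrially encoded subunit a of ATP synthase, had 29800 and 18600 FPKM in female brain, 1200 and 1080 in male brain, 167 and 628 in female gonad, and 907 and 454 in male gonad. Female brain was far above the rest, and the sexes overlapped in gonad. The log2 difference was 5.47 ± 1.17 in brain (0.0058) and -0.76 ± 0.98 in gonad (0.54), with an interaction of 6.23 ± 1.48 (0.008). ATP5J2, subunit f of the same enzyme, had 2770 and 1630 FPKM in female brain, 181 and 320 in male brain, and 255 to 685 in gonads, with an interaction of 5.18 ± 1.18 (0.0065). The ribosomal protein features rpl36 and RPS18 had interactions of 5.72 ± 1.94 (0.04) and 5.78 ± 1.83 (0.031). Their brain calls ended without female brain 1, male brain 1 or male brain 2 (0.091 to 0.13), and their interactions were lost without 7 and 6 of the 8 libraries. The FPKM of ATP5J2, rpl36 and RPS18 is scaled by effective lengths of 2 to 9 bases, so their levels are uncertain. Among the named genes the FPKM ratio between the sexes departed furthest from the fitted count difference for Acaca, pol and MAP1LC3C, where the effective length used by the authors varied between libraries (153 to 955 bases for MAP1LC3C).

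Male-high among the brain-only features was prkcbb, a protein kinase C of the beta type. It had 1.83 and 2.33 FPKM in female brain, 52.8 and 91.4 in male brain, 5.06 and 14.3 in female gonad, and 20.6 and 22.4 in male gonad. Its difference of -4.63 ± 0.7 in brain (0.0026) became -0.27 ± 0.6 in gonad (0.73), and the interaction was -4.35 ± 0.89 (0.0037). Nlrc3, from a family of innate immune receptors that is large in fish and has many near copies, had 6.53 and 7.1 FPKM in female brain and 716 to 1210 in the other groups. Its brain difference of -6.79 ± 1.88 (0.014) ended without female brain 1 (0.093) or female brain 2 (0.084), and its interaction of -7.8 ± 2.32 (0.023) without either of them or either male gonad library (0.066 to 0.089). ATP2A2, a calcium pump of the endoplasmic reticulum, differed by -4.55 ± 0.93 in brain (0.0052) and had an interaction of -3.86 ± 1.18 (0.026), which ended without female brain 1 (0.06), female brain 2 (0.096), male brain 2 (0.095), female gonad 1 (0.08) or male gonad 1 (0.075). VWA5B1 rested on male brain 2, at 94.5 FPKM against 0.76 in male brain 1, and its interaction p was 0.92 without it. Over all features, 798 (4.9%) were called in brain alone on the female side with the interaction, and 561 (3.45%) on the male side.

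Gene groups were read as counts of called features, beside the shares over all features given above. Calls over all features also fell when a library of the tissue was left out. A smaller count of a list in such a fit is therefore not by itself particular to that list. With recovered totals the medians of all features were -0.46 in brain and -0.72 in gonad, beside which list medians under that scaling stand. Several features of a list can share 1 gene name, so counts of features are not counts of genes. The 125 cytosolic ribosomal, 151 histone-modifying, 38 clock, 35 neuron and 31 growth hormone features held 75, 72, 20, 18 and 18 names. The cytosolic ribosome, which makes the proteins of the cell, was female-high in brain in most of its features. Of 125 ribosomal protein features, 101 were female-high and 1 male-high in brain, with a median log2 difference of 2.64 against 0.12 for all features. In gonad 5 were female-high and 9 male-high, with a median of -0.08 against -0.02. The interaction was called above 0 for 56 and below 0 for 1. Scaling by recovered totals left 87 and 2 in brain and gave 3 and 25 in gonad. The brain calls hung on single libraries: 2 of 125 features were female-high without female brain 1, 1 without male brain 1 and 11 without male brain 2, while the median stayed between 2.11 and 2.95. Interactions above 0 numbered 10 to 24 without each of 6 libraries. FAU, the precursor of ribosomal protein S30, had 534 and 313 FPKM in female brain, 46.9 and 51.9 in male brain, 43.6 and 40 in female gonad, and 169 and 40.9 in male gonad. The interaction of FAU was 5.89 ± 1.68 (0.019), lost without 6 of the 8 libraries (0.059 to 0.11), and its gonad groups overlapped.

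Genes of the respiratory chain were read by the genome that encodes them. All 11 features encoded in mitochondrial DNA were female-high in brain, with a median of 4.22. In gonad 0 were called, as were 0 at an unadjusted p below 0.05 and 0 by DESeq2, and the median was 0.95. The interaction was called for 2, mt-atp6 and mt-co2, and by DESeq2 for 7. The 11 brain calls became 2 without female brain 1, 1 without male brain 1 and 2 without male brain 2, and the gonad median became -1.52 without female gonad 2. Of the 90 features of the nuclear-encoded respiratory chain and ATP synthase, 46 were female-high and 4 male-high in brain, and 41 and 5 in gonad. Their medians were 1.36 and 0.89, and 24 were female-high in both. With recovered totals the medians were 0.73 and 0.19, the gonad calls 27 and 9, and 11 were female-high in both. Among the 24 was UQCRFS1, the Rieske protein of complex III, at 2.79 in brain and 3.0 in gonad, the former not called without female brain 1 (0.052) or male brain 2 (0.076). The female-high brain calls of this list became 8 without female brain 1, 18 without male brain 1 and 7 without male brain 2, and its gonad calls 24 without male gonad 2. Features of opposite sign were NDUFA12, COX5A, COX4 and COX5B, female-high in brain and male-high in gonad, and UQCRC2, the reverse. COX4, subunit 4 of cytochrome c oxidase, had 1090 and 969 FPKM in female brain, 155 and 114 in male brain, 15.8 and 27.9 in female gonad, and 175 and 83.7 in male gonad. Its differences were 3.61 ± 0.69 in brain (0.0042) and -2.04 ± 0.66 in gonad (0.021), and the gonad call ended without female gonad 1 (0.14) or male gonad 1 (0.15).

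Mitochondrial ribosomal proteins, which translate the mitochondrial messages, leaned to females in both tissues and more so in gonad. Of 69 features, 19 were female-high and 2 male-high in brain and 48 and 1 in gonad, with medians of 0.80 and 1.66. With recovered totals the medians were 0.22 and 0.96. The interaction was below 0 for 14 and above 0 for 0, where unadjusted p below 0.05 held for 2 and DESeq2 called 0. The 19 brain calls became 5, 5 and 2 without female brain 1, male brain 1 and male brain 2, and 9 or 10 without each gonad library. The 48 gonad calls became 31 without male gonad 2. mrpl10 had 2.35 and 5.78 FPKM in female brain, 7.75 and 7.96 in male brain, 59.9 and 76.5 in female gonad, and 15.1 and 11.3 in male gonad. Its gonad difference was 3.08 ± 0.44 (0.00018), and its brain difference of -0.3 ± 0.42 was not called (0.58). Of the 62 proteasome features, 17 were female-high and 6 male-high in brain and 27 and 7 in gonad, with medians of 0.47 and 0.86. With recovered totals the medians were -0.12 and 0.16, where the brain median changes sign, beside -0.46 and -0.72 for all features. The female-high brain calls became 6 without female brain 1, 9 without male brain 1 and 3 without male brain 2, and the gonad calls 17 without either male gonad library. The subunits of the immunoproteasome, the form made in cells under interferon, stood out by sign. Psmb8 and psmb9 were male-high in gonad, by -4.6 ± 1.0 (0.0024) and -4.28 ± 0.6 (0.00016), and their brain differences of 1.78 ± 0.87 (0.12) and 1.31 ± 0.53 (0.062) were not called.

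**Figure D4:**
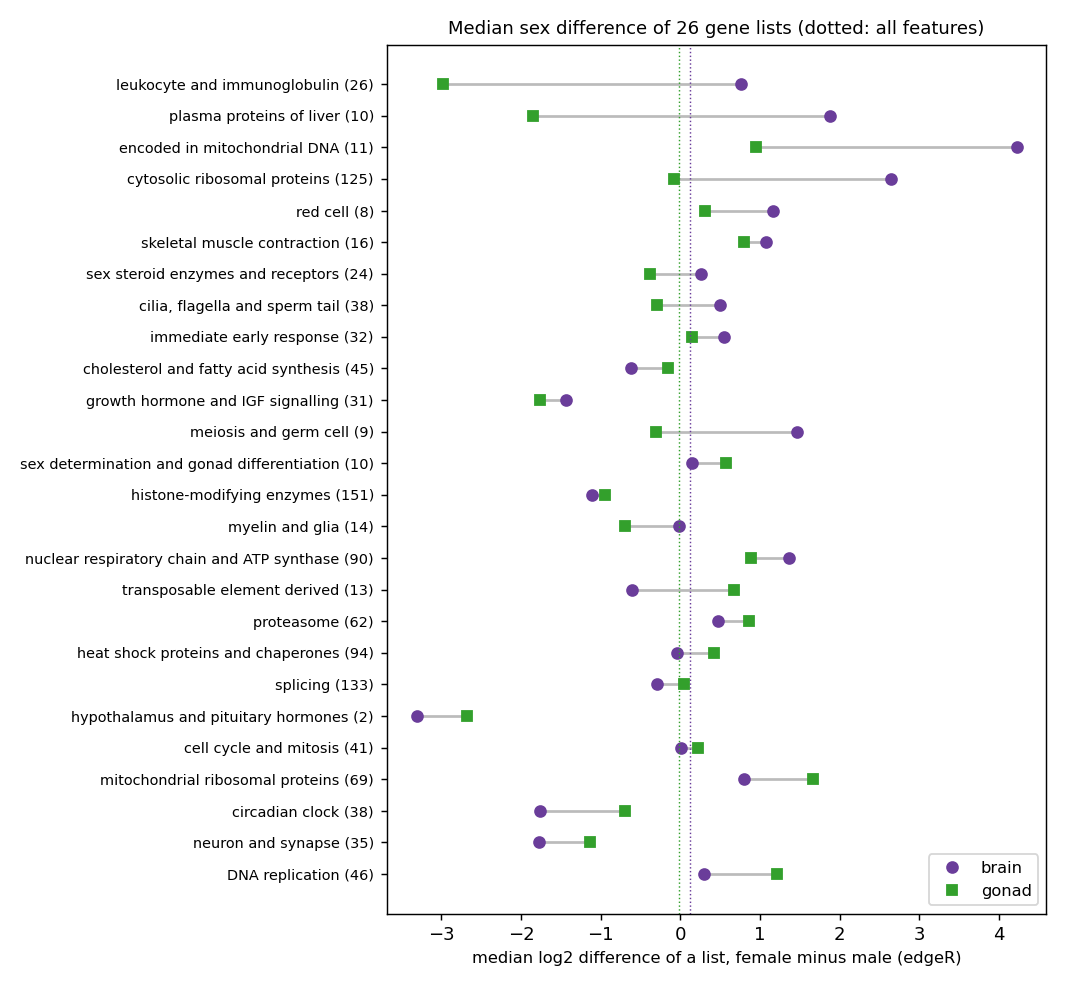
Median log2 difference female minus male in brain and in gonad for each gene list, with the median over all 16270 features (0.12 and -0.02) as dotted lines. Cytosolic ribosomal proteins (2.64 and -0.08) lie far apart in the 2 tissues, whereas growth hormone and IGF signalling (-1.43 and -1.76) lies close together.

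Calls among genes of growth control were nearly all male-high. In the list of growth hormone and IGF signalling, the axis that sets body growth through JAK and STAT proteins, 0 of 31 features were female-high and 15 male-high in brain, and 1 and 20 in gonad. Unadjusted p below 0.05 held for 0 female-high features in brain, and DESeq2 called 0. Medians were -1.43 and -1.76, and the interaction was called for 3. Male-high in both were 12 features, covering the receptors Insr and IGF2R, the adaptors irs1-b and irs2-b, the kinase AKT2, STAT3, STAT5B and SOCS3. STAT3, chosen after its values were seen, had 5.18 and 8.11 FPKM in female brain, 36.8 and 76.2 in male brain, 1.24 and 2.14 in female gonad, and 15.9 and 32.6 in male gonad. Its difference was -2.49 ± 0.6 in brain (0.0088), which ended without female brain 1 (0.071) or male brain 2 (0.052), and -3.18 ± 0.64 in gonad (0.0015). The male-high brain calls of the list fell to 2 without female brain 1, 5 without female brain 2 and 9 without male brain 2, and the gonad calls to 13 without female gonad 1 and 12 without female gonad 2. The 3 called interactions were those of the kinase JAK2 (2.04) and of a pair of features of GRB10, an adaptor that restrains insulin and IGF receptors. One GRB10 feature had -3.22 in brain and -0.72 in gonad, with an interaction of -2.5 (0.021). The other had 4.98 and 4.77 FPKM in female brain, 6.53 and 10.7 in male brain, 0.44 and 0.38 in female gonad, and 12.1 and 7.21 in male gonad, with a gonad difference of -3.99 ± 0.6 (0.00024) and an interaction of 3.63 ± 0.76 (0.0042).

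The circadian clock, a loop of activators and their own repressors, was male-high in brain. Of 38 features 22 were male-high and 1 female-high in brain, with a median of -1.76, and 14 and 6 in gonad, with a median of -0.70. The male-high brain calls became 10 without female brain 1. The interaction was below 0 for 11, which became 4 without female brain 1 and 7 without female gonad 1, and above 0 for 5, which became 2 or 3 without 5 of the libraries. PER1, a repressor of the loop, had 27.4 and 48.3 FPKM in female brain, 456 and 162 in male brain, 1.17 and 0.72 in female gonad, and 144 and 132 in male gonad. Both tissues had higher male libraries, but the gonad difference of -6.82 ± 0.67 (2.5e-05) was wider than that of brain, -2.68 ± 0.53 (0.0048), with an interaction of 4.14 ± 0.78 (0.0024). BHLHE40, another repressor, had 81 and 84.1 FPKM in female brain, 122 and 140 in male brain, 1.34 and 4.76 in female gonad, and 44.2 and 148 in male gonad. Its gonad difference was -4.13 ± 0.64 (0.0003), against 0.29 ± 0.56 in brain (0.7). Cry1 and ARNTL, a repressor and an activator chosen after their values were seen, showed the reverse. Cry1 had 4.12 and 9.16 FPKM in female brain, 79 and 112 in male brain, 11.6 and 6.48 in female gonad, and 19 and 15.1 in male gonad. Its difference was -3.14 ± 0.43 in brain (0.002) and -0.21 ± 0.4 in gonad (0.69). The interactions were -2.94 ± 0.58 for Cry1 (0.0031) and -2.5 ± 0.6 for ARNTL (0.0087). No hour of sampling is given in the labels used here.

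Neuronal genes and chromatin genes leaned to males in both tissues. Of 35 neuron and synapse features, which carry 18 names, 0 were female-high and 19 male-high in brain and 0 and 10 in gonad. The female-high counts at an unadjusted p below 0.05 and by DESeq2 were also 0. Male-high calls became 11 in brain without female brain 1, and 4 in gonad without female gonad 1 or male gonad 2. With recovered totals 20 were male-high in gonad and 15 in both tissues, against 10 and 7. CLSTN1, a membrane protein of synapses, had 0.76 and 2.37 FPKM in female brain, 89.8 and 56.8 in male brain, 1.18 and 1.16 in female gonad, and 6.59 and 6.41 in male gonad. Its difference was -5.35 ± 0.7 in brain (0.002) and -1.94 ± 0.62 in gonad (0.019), with an interaction of -3.41 ± 0.86 (0.011). The gonad call ended without female gonad 1 (difference -1.88), female gonad 2 (-2.04) or male gonad 2 (-1.9). The interaction call ended without female brain 1 (interaction -2.91). ENO2, the neuronal enolase, had an interaction of -3.78 ± 1.35 at an adjusted p of 0.05 after rounding, just inside the threshold, and it ended without 6 of the 8 libraries. Markers of neurons and oligodendrocytes did not move as sets. Of 15 neuron markers 2 were matched, ENO2 and the glutamate transporter slc17a7, and the latter had 37.2 and 26.1 FPKM in female brain and 23.8 and 30.8 in male brain. Of 8 oligodendrocyte markers 3 were matched, and beside MBP neither Mag (0.16, adjusted p = 0.94) nor CNP (0.84, adjusted p = 0.18) was called in brain. Among 151 features of histone-modifying enzymes, 71 were male-high and 5 female-high in brain and 67 and 26 in gonad, and 47 were male-high in both. Those 47 included several features each of the methyltransferase KMT2C, the demethylase KDM5C, the acetyltransferases CREBBP and EP300 and the deacetylase HDAC4. The male-high brain calls became 27 without female brain 1 and 40 without female brain 2, and the female-high gonad calls 11 without male gonad 2. EZH1, a methyltransferase of the Polycomb complex, had 131 and 92.5 FPKM in female brain, 286 and 240 in male brain, 0.75 and 1.16 in female gonad, and 54 and 48.3 in male gonad. Its gonad difference of -4.97 ± 0.47 (2.1e-05) stood beside -0.56 ± 0.37 in brain (0.24), and the interaction was 4.41 ± 0.59 (0.00052). kdm8 was the reverse, with -4.18 ± 0.71 in brain (0.0034) and -0.07 ± 0.61 in gonad (0.94).

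Genes of DNA replication were female-high in gonad. Of 46 features 24 were female-high and 1 male-high in gonad, with a median of 1.22, and 9 and 6 in brain, with a median of 0.30 that became -0.30 with recovered totals. The interaction was below 0 for 13 and above 0 for 1. rrm1, the large subunit of ribonucleotide reductase, had 4.15 and 5.53 FPKM in female brain, 13.5 and 10 in male brain, 512 and 354 in female gonad, and 60.8 and 60.9 in male gonad. Female gonad stood above male gonad, while female brain stood below male brain. The gonad difference was 3.58 ± 0.47 (0.00011), the brain difference of -0.68 ± 0.43 was not called (0.22), and the interaction was -4.26 ± 0.63 (0.00074). A feature of TOP1, a topoisomerase that unwinds DNA, had 17.7 and 24 FPKM in female brain, 19.4 and 21.7 in male brain, 383 and 428 in female gonad, and 23.9 and 26.4 in male gonad. Female gonad was high, the other 3 groups lay close together, and the gonad difference was 4.67 ± 0.34 (1.1e-05). rpa2, the middle subunit of the single-strand binding complex, chosen after its values were seen, was female-high in both, by 2.4 ± 0.69 in brain (0.016) and 5.29 ± 0.76 in gonad (0.00019), the brain call ending without female brain 1 (0.062), female brain 2 (0.053) or male brain 2 (0.15). The 9 female-high brain calls of the list became 1, 4, 2 and 1 without female brain 1, female brain 2, male brain 1 and male brain 2, and the 24 gonad calls 15 without male gonad 2.

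Cell cycle regulators held female-high and male-high genes in gonad. Of 41 features 12 were female-high and 3 male-high in gonad, with a median of 0.22 that became -0.48 with recovered totals, and 6 and 11 in brain. The brain counts became 1 and 1 without female brain 1 and 0 and 4 without male brain 2. CDC25B, the phosphatase that starts mitosis and meiotic maturation, had 2.13 and 0.85 FPKM in female brain, 11.1 and 8.98 in male brain, 113 and 91.2 in female gonad, and 24.8 and 24.7 in male gonad. Its difference was 2.75 ± 0.57 in gonad (0.0018) and -2.0 ± 0.6 in brain (0.02), the latter lost without female brain 2 (0.15), male brain 1 (0.051) or male brain 2 (0.055). WEE1, the kinase that CDC25B opposes, had 76.7 and 74.5 FPKM in male gonad and 3.75 to 5.17 in the 6 other libraries. Its gonad difference was -3.68 ± 0.37 (2.7e-05), and its interaction 4.01 ± 0.49 (0.00043). Of 9 meiosis and germ cell features, 3 were female-high and 3 male-high in gonad. MAP1LC3C, an autophagy protein, had 1290 and 1730 FPKM in female gonad, 2.98 and 15.3 in male gonad, 5.94 and 8.07 in female brain, and 5.13 and 21 in male brain. Its gonad difference was 9.81 ± 0.86 (1.4e-05). The brain difference of 1.78 ± 0.64 (0.041) turned to -0.55 in limma on log2(FPKM + 1), and the brain groups overlapped. CD9, a membrane protein of the egg surface in mammals, chosen after its values were seen, had 742 and 677 FPKM in female brain, 588 and 218 in male brain, 216 and 200 in female gonad, and 3.64 and 2.09 in male gonad. Its interaction was -5.34 ± 0.77 (0.00066). Of 38 features of cilia and sperm tails, 13 were female-high and 8 male-high in brain and 6 and 7 in gonad, with medians of 0.50 and -0.29, and of -0.05 and -0.99 with recovered totals. The 13 brain calls became 5, 7, 1 and 4 without female brain 1, female brain 2, male brain 1 and male brain 2. cep290, a protein of the ciliary transition zone, had 5.49 and 5.74 FPKM in female gonad and 58.9 and 41.6 in male gonad, against 11.2 to 27.9 in brains. Its interaction was 3.91 ± 0.64 (0.0012). KIF3B, a motor of transport along cilia, had the opposite interaction of -3.49, with 60.8 and 33.1 FPKM in female gonad, 22.7 and 20.3 in male gonad, 3.13 and 4.28 in female brain, and 21.9 and 21.9 in male brain.

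Of 24 features of sex steroid enzymes and receptors, 4 were female-high and 4 male-high in brain and 7 and 5 in gonad. With recovered totals these became 3 and 6 in brain and 2 and 11 in gonad, with 6 male-high in both. The 4 male-high brain calls became 0 without either female brain library and 2 without either male brain library. Hsd3b7, a hydroxysteroid dehydrogenase known for bile acid synthesis, had 1.02 and 1.89 FPKM in female brain, 2.12 and 5.34 in male brain, 37.8 and 53.9 in female gonad, and 11 and 6.92 in male gonad. Its gonad difference was 3.36 ± 0.63 (0.00095), and its interaction -3.87 ± 0.86 (0.0058). The glucocorticoid and mineralocorticoid receptor features nr3c1 and nr3c2 (both from 1 assembled cluster) were male-high in both tissues, by -1.41 and -2.09 in brain and by -3.27 and -2.19 in gonad. cyp19a1, the aromatase that makes oestrogen, had differences of 2.50 in brain (0.11) and -0.32 in gonad (0.84). esr2, an oestrogen receptor, had -0.22 and -0.36 (0.84 and 0.72). Of the sex determination list only CTNNB1, KDM6B and CBX2 were matched. CTNNB1, the beta-catenin of Wnt signalling, had a feature that was female-high in both, by 2.2 and 2.18, as was another of its assembled cluster (1.68 and 1.22), and KDM6B, a histone demethylase tied to temperature-dependent sex in turtles, had one that was male-high in both, by -3.0 and -3.97. The other CTNNB1 and KDM6B features were not called in both. In the list of hypothalamic and pituitary hormones only the hormone-processing enzymes pam-a and pam-b were matched, both male-high in both tissues, by -3.61 and -3.0 in brain and by -2.6 and -2.76 in gonad. vtg1, the yolk precursor that the female liver makes under oestrogen, was chosen after its values were seen. It had 221 and 170 FPKM in female brain, 422 and 573 in male brain, 31.1 and 57.7 in female gonad, and 485 and 332 in male gonad. Male libraries were higher in both organs, with differences of -1.33 ± 0.6 in brain (0.09) and -4.37 ± 0.69 in gonad (0.00031), whereas liver differed by 8.75 ± 0.82 in favour of females (0.00063). The interaction of vtg1, 3.04 ± 0.86 (0.019), ended without 5 of the 8 libraries.

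Immediate early genes divided by gene. Of 32 features 5 were female-high and 3 male-high in brain and 6 and 10 in gonad, the last becoming 3 without female gonad 1 and 4 without male gonad 2. Beside EGR1, myca, a Myc transcription factor, had 1.11 and 3.94 FPKM in female brain, 43 and 40.6 in male brain, 39.7 and 48 in female gonad, and 22.4 and 27.6 in male gonad. Female brain was low and the other groups were within a narrow range, with a brain difference of -3.51 ± 0.74 (0.0056), lost without female brain 1 (0.053), and a gonad difference of 1.37 ± 0.66 (0.1). JUND, an AP-1 subunit, had 40 and 47 FPKM in female brain, 37.8 and 18.7 in male brain, 0.32 and 1.42 in female gonad, and 17.7 and 14.6 in male gonad. Its interaction of 4.74 ± 1.28 (0.015) ended without female gonad 1 (0.079) or male brain 2 (0.066).

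Some genes of glia and of leukocytes also had a sex difference that differed by tissue. MBP, the structural protein of myelin, had 1370 and 1850 FPKM in female brain, 134 and 156 in male brain, 1.08 and 1.41 in female gonad, and 4.58 and 7.24 in male gonad. Female brain exceeded male brain by 3.91 ± 0.53 (0.002). The gonad difference of -1.75 ± 0.55 (0.019) was of low levels and was lost without female gonad 1 (0.068), female gonad 2 (0.093) or male gonad 2 (0.1). GLUL, glutamine synthetase of astrocytes and other cells, was female-high in gonad by 3.23 ± 0.53 (0.00039) and had -0.56 ± 0.48 in brain (0.37). Of 26 leukocyte features, 14 were male-high and 3 female-high in gonad, and 2 and 0 in brain, where unadjusted p below 0.05 held for 2 female-high features and DESeq2 called 1. The interaction was above 0 for 12 and below 0 for 2. Without male gonad 2 the male-high gonad calls were 7 and the interaction was above 0 for 5, and without female gonad 1 they were 9 and 5. Without female brain 1 and male brain 1 the interaction was above 0 for 7 and 6. CD74, a chaperone of antigen presentation, had 44.9 and 111 FPKM in female gonad and 502 and 3880 in male gonad, and ptprc, the pan-leukocyte phosphatase, had 1.0 and 3.89 against 21.2 and 87.2. IRF1, an interferon-response factor, had 11.3 and 265 FPKM in male gonad, and its gonad difference of -5.58 ± 1.47 (0.0072) ended without male gonad 2 (0.21) or female gonad 1 (0.059). The leukocyte marker sum, from 3 of 8 markers, was 52.4 and 130 FPKM in female gonad and 546 and 4030 in male gonad.

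Red cell markers, 2 of 9, summed to 7140 and 17400 FPKM in female brain, 33.6 and 872 in male brain, and 42.4 to 330 in gonads. The beta-globin feature hbb1 alone had 5910 and 13500 FPKM in female brain, 30.4 and 760 in male brain, 36.6 and 259 in female gonad, and 41.4 and 64.8 in male gonad. Of 8 red cell features, 2 were female-high in brain, a share near that of all features (21.4%). Hepatocyte markers, 6 of 8, summed to 160 and 50.6 FPKM in female brain and 51.3 and 57.9 in male brain, so female brain 1 alone was high among brains. In gonads the sums were 73.6 and 83.5 in females and 134 and 114 in males. Of 10 features of liver plasma proteins, 4 were female-high in brain and 6 had an interaction above 0, but 0 were called in brain without female brain 1, male brain 1 or male brain 2. hpx, hemopexin, had 10.5 and 0.94 FPKM in female brain and 0.63 and 0.97 in male brain, and its brain call (0.03) ended without female brain 1 (0.72), male brain 1 (0.15) or male brain 2 (0.12). Of 16 features of muscle contraction, 2 were female-high and 3 male-high in brain and 0 and 0 in gonad, where unadjusted p below 0.05 held for 2 and 1 and DESeq2 called 2 and 1.

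In the remaining groups, scaling by recovered totals moved the balance of calls toward males. The same shift was seen over all features, which then had 1722 female-high and 4315 male-high calls in brain and 1879 and 5674 in gonad. In gonad the chaperone and splicing lists went with it, from more female-high to more male-high calls. Of 94 chaperone features, 16 were female-high and 18 male-high in brain and 25 and 16 in gonad, and with recovered totals 3 and 29 in brain and 14 and 24 in gonad. The brain counts became 1 and 4 without female brain 1, 0 and 6 without male brain 2. hsp90a.1, an inducible HSP90, had 185 and 370 FPKM in female brain, 178 and 106 in male brain, 2.81 and 10.1 in female gonad, and 181 and 169 in male gonad. Female gonad alone was low, with a gonad difference of -4.09 ± 0.62 (0.00024) and an interaction of 5.66 ± 0.82 (0.00067). Of 133 splicing features, 16 were female-high and 31 male-high in brain and 41 and 37 in gonad, and with recovered totals 6 and 49 in brain and 23 and 46 in gonad. The brain counts became 6 and 7 without female brain 1, 9 and 9 without female brain 2. The splicing regulators MBNL1 and Hnrnpd were male-high in gonad, by -4.7 ± 0.56 (6.2e-05) and -3.76 ± 0.45 (6.6e-05), and differed by -0.03 ± 0.43 and 0.56 ± 0.4 in brain (0.96 and 0.27). Of 13 features derived from transposable elements, 1 was female-high and 4 male-high in brain and 5 and 5 in gonad. With recovered totals these were 0 and 6 in brain and 3 and 5 in gonad. ERVV-2, a retroviral envelope relic, had 5.43 and 3.98 FPKM in female brain, 19.8 and 17.2 in male brain, 3.83 and 2.5 in female gonad, and 1250 and 681 in male gonad. Its differences were -1.62 ± 0.47 in brain (0.017) and -7.54 ± 0.59 in gonad (1.1e-05), and the brain call ended without female brain 2 (0.14) or male brain 1 (0.075). Of 45 features of cholesterol and fatty acid synthesis, 4 were female-high and 7 male-high in brain and 8 and 12 in gonad, and with recovered totals 1 and 9 in brain and 3 and 13 in gonad. With TMM, 0 were male-high in brain without female brain 1. ACSL6, which activates long-chain fatty acids, had 3.72 and 6.88 FPKM in female brain, 27.7 and 21.7 in male brain, 11.3 and 9.88 in female gonad, and 0.42 and 2.35 in male gonad, with an interaction of -4.99 ± 0.9 (0.0019). Its brain difference of -1.73 ± 0.62 (0.039) ended without any brain library (0.077 to 0.17).

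**Figure D5:**
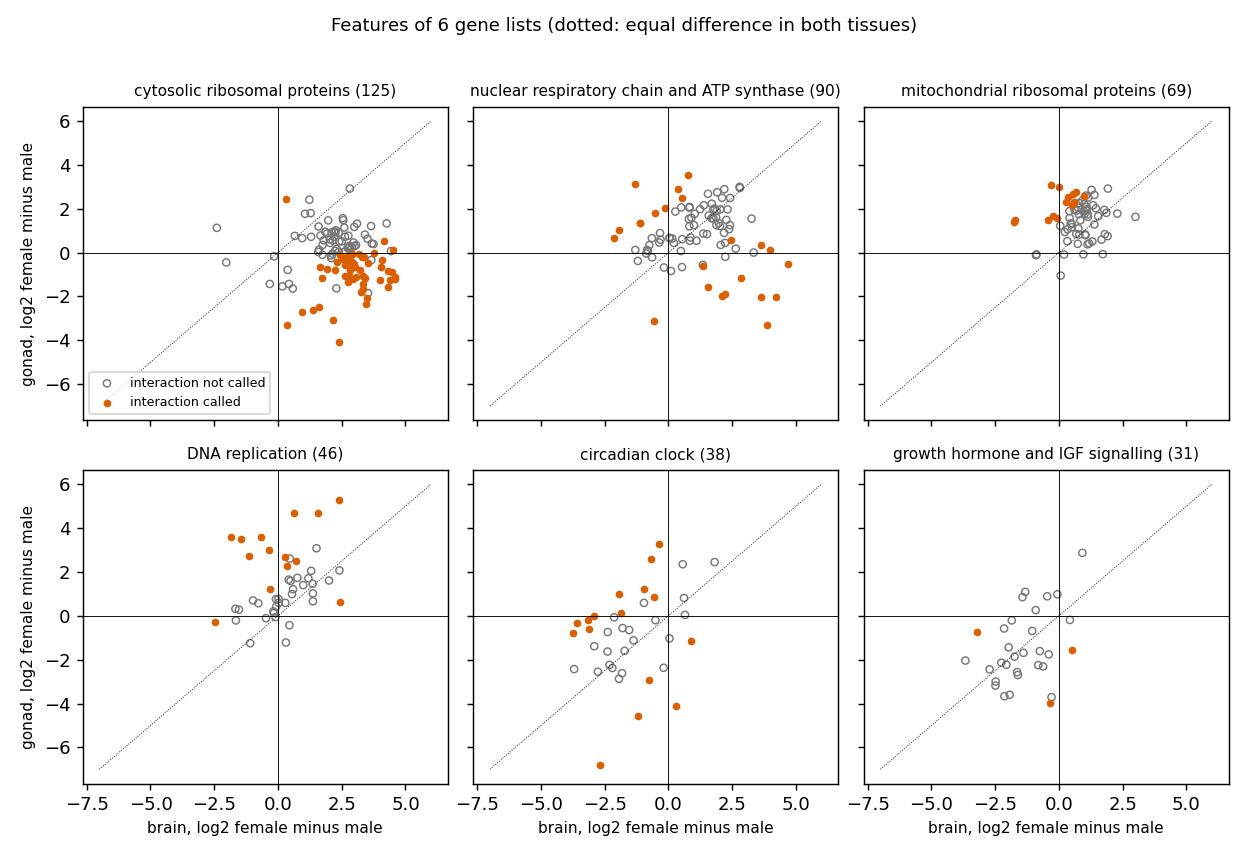
Log2 difference female minus male in brain (x axis) against gonad (y axis) for the features of 6 gene lists, with filled points where the interaction was called and a dotted line of equal difference. Cytosolic ribosomal proteins lie to the right on the brain axis (median 2.64), DNA replication and mitochondrial ribosomal proteins lie above 0 on the gonad axis (medians 1.22 and 1.66), and growth hormone and IGF signalling lies to the lower left.

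Features that carried the same gene name did not always fall in the same class. Of 1757 names with a feature called in both tissues, 248 had several such features. For 198 of these all features lay in 1 class, and for 50 they did not. In 40 of the 50, a feature of the same sign stood beside a feature of opposite sign, and in 10 a female-high feature stood beside a male-high feature. The following were chosen after their values were seen. Cox5b (TRINITY_DN127160_c2_g3), subunit 5B of cytochrome c oxidase, had 1300 and 894 FPKM in female brain, 501 and 424 in male brain, 1420 and 1170 in female gonad, and 282 and 313 in male gonad. COX5B (TRINITY_DN146411_c3_g1), another feature with that annotation, had 97 and 45.2 FPKM in female brain, 5.36 and 9.91 in male brain, 0.73 and 2.93 in female gonad, and 27.7 and 29.1 in male gonad. The abundant feature was female-high in both tissues, whereas the rarer was female-high in brain and male-high in gonad. Differences of the abundant feature were 1.91 ± 0.39 (0.005) and 2.75 ± 0.4 (0.0002), with an interaction of -0.84 (0.24). Those of the rarer were 3.88 ± 0.84 (0.006) and -3.29 ± 0.84 (0.0061), with an interaction of 7.17 ± 1.18 (0.0012). The brain call of the first ended without male brain 2 (0.051), and the brain and gonad calls of the second without male brain 1 (0.05) and female gonad 1 (0.059).

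A pair of rpl19 features, from a single assembled cluster, parted the same way. The longer (TRINITY_DN125640_c1_g3, 853 bases) had 3870 and 2590 FPKM in female brain, 966 and 1510 in male brain, 166 and 238 in female gonad, and 3290 and 1290 in male gonad. The shorter (TRINITY_DN125640_c1_g4, 500 bases) had 1440 and 1030 FPKM in female brain, 289 and 322 in male brain, 4070 and 3920 in female gonad, and 1080 and 629 in male gonad. In gonad the longer was the male-high feature and the shorter the female-high one. Gonad differences were -3.06 ± 0.69 (0.003) and 2.92 ± 0.59 (0.0016), and brain differences 2.15 ± 0.67 (0.023) and 2.82 ± 0.59 (0.0055). The brain call of the longer ended without female brain 1 (0.14), male brain 1 (0.17) or male brain 2 (0.087). The counting of fragments could divide them between such near copies, so the level of each is uncertain. Names shared by features in 2 classes also included PSMA6, UBE2A, RHOA, CDC42, HNRNPK and TUBB.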

How the data were processed

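The deposited table holds, for each assembled feature and library, an expected count and an FPKM value that the authors made with RSEM, per the submitters' processing notes, which give no version. The assembly carries Trinity feature names per the file headers, reads came from an Illumina HiSeq 4000 per the labels, and neither the trimming nor the annotation settings are stated by the labels. Deposited FPKM values are scaled by effective length and by the library's own total, and 16 further value columns that match no listed sample were not used. All features reach 1 FPKM in at least 2 of the libraries, and the lowest value in any of the 16 libraries is 0.31 FPKM. The table is therefore a filtered one. Every listed feature has signal in each of the 16 libraries. A gene without signal in even 1 of them is not listed, and values near 0.31 FPKM lie at the floor. The series text names pituitary where the sample labels name muscle, and the sample labels were followed.

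Expected counts were rounded and tested with edgeR 4.0.16 (R 4.3.3): TMM scaling, 8 group means over 16 libraries, quasi-likelihood F tests with 8 residual degrees of freedom, and Benjamini-Hochberg adjustment over 16270 features at 0.05. The standard error is the absolute log2 difference divided by the square root of F. The test was also run on simulated counts, and the outcome of that run is not given here. The sexes were called overlapping where their FPKM ranges crossed. No filter on low counts was applied. Alternatives were limma 3.58.1 on log2(FPKM + 1) and log2(FPKM + 0.1), DESeq2 1.42.0, RLE size factors, scaling by total fragments recovered from count, FPKM and effective length, a minimum of 10 counts in each of the 8 libraries, a fit of those 8 libraries alone, a replicate block, and each library left out in turn. Tables and figures used Python 3.11.15 with pandas 2.3.3 and matplotlib 3.10.9.

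Genes were named by rule, 1 feature per name. Named were the 6 non-overlapping features with the widest smaller difference in each of the 4 sign classes, the 4 brain-only features each way, the 4 widest interactions each way, and the 2 widest called interactions of each list. This gave 77 features, some of which are not reported here. Other list members and a few further genes were named after their values were seen. The members, lists and tests were chosen with earlier results of these data known. No sequence is printed because no reference was used here.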

Additional observations from a re-analysis of the deposited data

Results flagged for a closer look

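The sex difference of brain differed from that of gonad for 4798 features by the test of the interaction itself (edgeR, adjusted over all features), and the named genes among them follow with their log2 interaction. A positive value means that the female minus male difference was more female-high, or less male-high, in brain than in gonad. Of the 65 interactions called among the 77 genes named by rule, 45 were called without each of the 8 libraries in turn.

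For genes female-high in brain and male-high in gonad, the interaction was 7.43 for ZBTB17, 5.51 for aad-a, 5.65 for hes4-a, 7.16 for PEBP1, 8.11 for hormad1, 5.35 for P2ry4 and 7.21 for ARHGEF25 (whose gonad groups overlapped), as well as 7.17 for COX5B and 5.21 for rpl19. For genes male-high in brain and female-high in gonad it was -9.1 for RND1, -6.99 for AKAP1, -8.11 for ETV5, -6.07 for LONRF3, -5.94 for PRKCD, -7.73 for RND3, -9.68 for PRORSD1 (whose brain groups overlapped) and -8.12 for Thap4. Without male brain 2 that of PRORSD1 was -1.75. Genes called in brain alone gave 6.23 for mt-atp6, 5.18 for ATP5J2, 5.72 for rpl36, 5.78 for RPS18, -7.8 for Nlrc3, -4.35 for prkcbb, -3.86 for ATP2A2 and -6.44 for VWA5B1. Of these, rpl36, RPS18, Nlrc3, ATP2A2 and VWA5B1 lost the call without 7, 6, 4, 5 and 4 libraries.

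Among hormone, growth and clock genes the interaction was -3.87 for Hsd3b7, 3.63 for GRB10, 2.04 for JAK2, 3.04 for vtg1, 4.42 for BHLHE40, 4.14 for PER1, -2.94 for Cry1 and -2.5 for ARNTL. JAK2 lost its call without female gonad 1 (0.064), and vtg1 without 5 libraries (0.062 to 0.095). Immediate early genes gave -4.88 for myca and 4.74 for JUND.

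Genes of replication, division and cilia gave -4.26 for rrm1, -4.05 for TOP1, -2.89 for rpa2, -4.75 for CDC25B, 4.01 for WEE1, -8.03 for MAP1LC3C, -5.34 for CD9, 3.91 for cep290 and -3.49 for KIF3B. That of rpa2 was lost without 6 of the 8 libraries (0.055 to 0.11). Neural and glial genes gave -3.78 for ENO2, -3.41 for CLSTN1, 5.66 for MBP and -3.79 for GLUL, and that of ENO2 was lost without 6 libraries (0.1 to 0.9). Genes of blood, muscle and plasma gave 6.38 for Psmb8, 6.38 for IRF1, 1.63 for Epb41, -1.55 for cahz, -2.56 for RYR1, 5.94 for hpx and 5.5 for c3. Those of Epb41 (0.086 to 0.23), cahz (0.051 to 0.11) and RYR1 (0.063 to 0.16) were each lost without 7 of the 8 libraries, and those of IRF1 (0.052 to 0.22) and hpx (0.059 to 0.24) without 6.

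Chromatin, chaperone and protein synthesis genes gave 4.41 for EZH1, -4.11 for kdm8, 5.66 for hsp90a.1, 5.19 for hsp70, 5.89 for FAU, -3.39 for mrpl10, -3.15 for Mrps26, 5.59 for psmb9 and 5.65 for COX4. The interaction of hsp70 was lost without 3 libraries (0.053 to 0.23), and that of FAU without 6 (0.059 to 0.11). RNA, transposon and lipid genes gave 4.67 for MBNL1, 4.32 for Hnrnpd, 5.92 for ERVV-2, 4.13 for pol, -4.99 for ACSL6 and 4.31 for Acaca.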

How the results depend on the processing

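Counts of brain, gonad and interaction calls stayed within 1.5 times of 6471, 7661 and 4798 under other scaling, tools, filters and blocks, except for 2972 interactions in limma on log2(FPKM + 0.1). Features of opposite sign, 655, became 357 there and 1110 in a fit of the 8 libraries alone. The same-sign features that also passed in liver or muscle with that sign, 170, became 272 with recovered totals and 598 with DESeq2. Leaving out each library gave 1774 to 6129 brain calls, 4905 to 7369 gonad calls, 2704 to 4168 interactions, 766 to 1967 same-sign and 157 to 570 opposite-sign features, and 40 to 114 passing in liver or muscle, the lowest without female brain 1, male gonad 2, female gonad 1, female brain 1, female brain 1 and female brain 1. The cause was not tested.

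Replicate numbers are shared by the labels, but 2 numbers per group do not show whether they pair the fish. The first minus the second replicate correlated at 0.07 between female brain and female gonad and at 0.25 between male brain and male gonad. Over the other pairs of tissues this correlation ran from 0.16 to 0.61 in males and from -0.36 to 0.22 in females. Between groups of different sex it ran from -0.08 to 0.33. A replicate block with the number within a sex gave 3682 same-sign features and 1026 passing in liver or muscle, and a replicate block over both sexes gave 281 of the latter. All 24 class genes kept both calls under either block.

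Interactions close to 0 changed sign. In limma with 1 and 0.1 added they were 0.95 and 1.31 for rbm48, 0.02 and 0.24 for ARFGEF3 and 0.7 and 0.18 for Adam11, and with 1 added -0.35 for RIMS1. That of ARFGEF3 was 0.04 with recovered totals and 0.01 with the count minimum. Leaving out each library gave ranges of -1.23 to 0.15 for EGR1, -0.76 to 0.35 for pithd1, -0.69 to 0.19 for Abcf3, -0.32 to 0.35 for RIMS1, -0.58 to 0.68 for MROH1, -0.64 to 0.27 for ARFGEF3, -1.69 to 0.81 for Adam11, -0.71 to 0.23 for the shorter rpl19, -0.1 to 1.12 for STAT3 and -0.7 to 0.1 for UQCRFS1. None of these was called. With 2 libraries per group, a difference that missed the threshold is not shown to be absent, and low-count features such as Pip5k1a have the least depth.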
